A study of Mus musculus with 30 samples.

Results

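The complement components and regulators described here are 8 genes of 78334 listed in the table: C1ra, C1s1, C4b, C2, C3, Cfb, Serping1 and Cd55. They were chosen by name, with earlier results of these data known, and each was found by its Ensembl gene identifier. The gene lists and markers below were also chosen with those results known, so counts of calls among all of these are no independent test. RNA was sequenced from 30 libraries labelled as mouse aortic smooth muscle cells, in 9 groups and in sequencing runs named 2 and 3. All cells were starved of serum for 48 h and transfected for at least 24 h. In run 2, which had no further treatment, the groups were cells given a control GapmeR (an antisense oligonucleotide that directs RNase H to an RNA; n = 2), libraries labelled total CASC15 knockdown (n = 2), an overexpression control (n = 3) and overexpression of total CASC15 (n = 3). Overexpression used plasmids, and the overexpression control is called the plasmid control below. In run 3, with 4 libraries a group, cells carrying the knockdown control were left untreated or were given angiotensin II (10 ng/ml) or PDGF-BB (10 to 30 ng/ml) for 24 h, and cells with knockdown of long CASC15 were left untreated or were given angiotensin II. CASC15 is a long noncoding RNA. The labels give neither the transcripts that "total" and "long" stand for nor whether libraries came from separate animals, so p-values measure the spread between these libraries, which may be technical. Batch labels follow the replicate numbers: run 3 numbers P16 through P19 as libraries 1 to 4, and run 2 numbers P17 through P19 as libraries 1 to 3. The growth protocol covers mouse and rat cells.

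Complement is a protease cascade of blood and tissue fluid. In the classical pathway the proteases C1r and C1s cleave C4 and C2, and the product cleaves C3, the protein on which all routes converge. Factor B, the Cfb product, serves in the matching enzyme of the alternative pathway, which amplifies C3 cleavage. The C1 inhibitor, encoded by Serping1, blocks C1r and C1s, and CD55 is a membrane protein that takes apart the C3-cleaving enzymes on a cell's own surface. The liver makes most complement in plasma, and cells of the vessel wall also make components, in part under inflammatory cytokines.

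Totals per library ranged from 18007199 to 21881959 counts for run 2, and from 15771490 to 30362047 for run 3. The RNA read as CASC15, 2610307P16Rik, was at 604 to 916 CPM (counts scaled to library size) in the overexpression libraries and 4.03 to 8.69 in the plasmid controls. It was at 2.15 to 3.48 CPM in untreated long CASC15 knockdown, against 4.94 to 6.01 in its control (adjusted p = 0.000832, edgeR quasi-likelihood test). In the libraries labelled total CASC15 knockdown it was at 8.29 to 9.73, against 6.37 to 7.66 (adjusted p = 0.739), so these libraries went against their label. Of 8 smooth muscle markers, 6 to 8 were detected in a group, with sums of 175 to 536 CPM over libraries. Acta2 and Smtn made up most of that sum. The contractile markers Myh11, Cnn1 and Tagln were low: group means reached 5.49, 0.162 and 3.25 CPM. Fibroblast markers summed to 607 to 2253 CPM, mostly Dcn, with Tcf21 at 0, and mesothelial markers to 103 to 458 CPM.

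The libraries of batch P19 stood apart for some members. In run 3 they were at 48.8% to 66.7% of the mean of the other batches for C3 and at 15.4% to 33.4% for C4b, over the 5 groups. Cd55 in P19 was at 89.4% to 134.1%, with no common direction. Serping1 in P19 was lowest in 4 of 5 groups.

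Promoter sequence is shown for C3, the member with the largest rise below, because its window holds, before the start site, the C/EBP motif TTGCNNAA, marked in capitals. The stretch is RefSeq promoter sequence on GRCm38.p6, chr17:57228137-57228256, minus strand, printed 5′ to 3′ on the gene's strand. It spans 120 bases and ends 1 base before the start.
C3: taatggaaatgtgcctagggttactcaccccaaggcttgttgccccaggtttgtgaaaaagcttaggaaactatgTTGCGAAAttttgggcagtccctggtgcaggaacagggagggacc
Windows from 250 bases before to 50 after the start were held for 4 of the 8 genes (C1ra, C1s1, C3 and Cd55), 5 windows in all, since C1s1 has 2 that overlap. On either strand, TTGCNNAA was in 3 of the 5 windows (C1ra, C3 and 1 of the 2 of C1s1) and in 10.8% of all 32851. The C1s1 window with the match ends in the sequence of 1 of 5 GENCODE transcripts of the gene, and the window without it in that of 4 of 5. The STAT motif TTCNNNGAA was in 1 of the 5 (C1ra) and in 8.3% of all. The kB motif GGNNTTTCC (5.82% of all) and the interferon response element GAAANNGAA (8.56%) were in 0 of the 5. A match describes letters only.

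Levels per length, as RPKM over union exon length, give the order of the genes in the untreated control of run 3 (n = 4). C1s1 (164 ± 14.9 SD) and Cd55 (133 ± 10.2) stood highest. C1ra (52.1 ± 3.56) and C3 (48.2 ± 13.3) followed and did not differ beyond their spread. C4b was at 16.4 ± 6.75, Serping1 at 3.06 ± 1.37 and Cfb at 1.96 ± 0.771 RPKM. C2, the protease partner of C4 in the classical pathway, was at 0.032 ± 0.0318 RPKM. It had 0 to 13 counts in any library and 0 in 5 of the 30, was not kept by the low-count filter, and was not tested. C1qa, which encodes a chain of the C1q recognition protein, had no count in any library. C1r and C1s RNA was thus abundant where C2 and C1qa RNA was at or near 0.

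**Figure D1:**
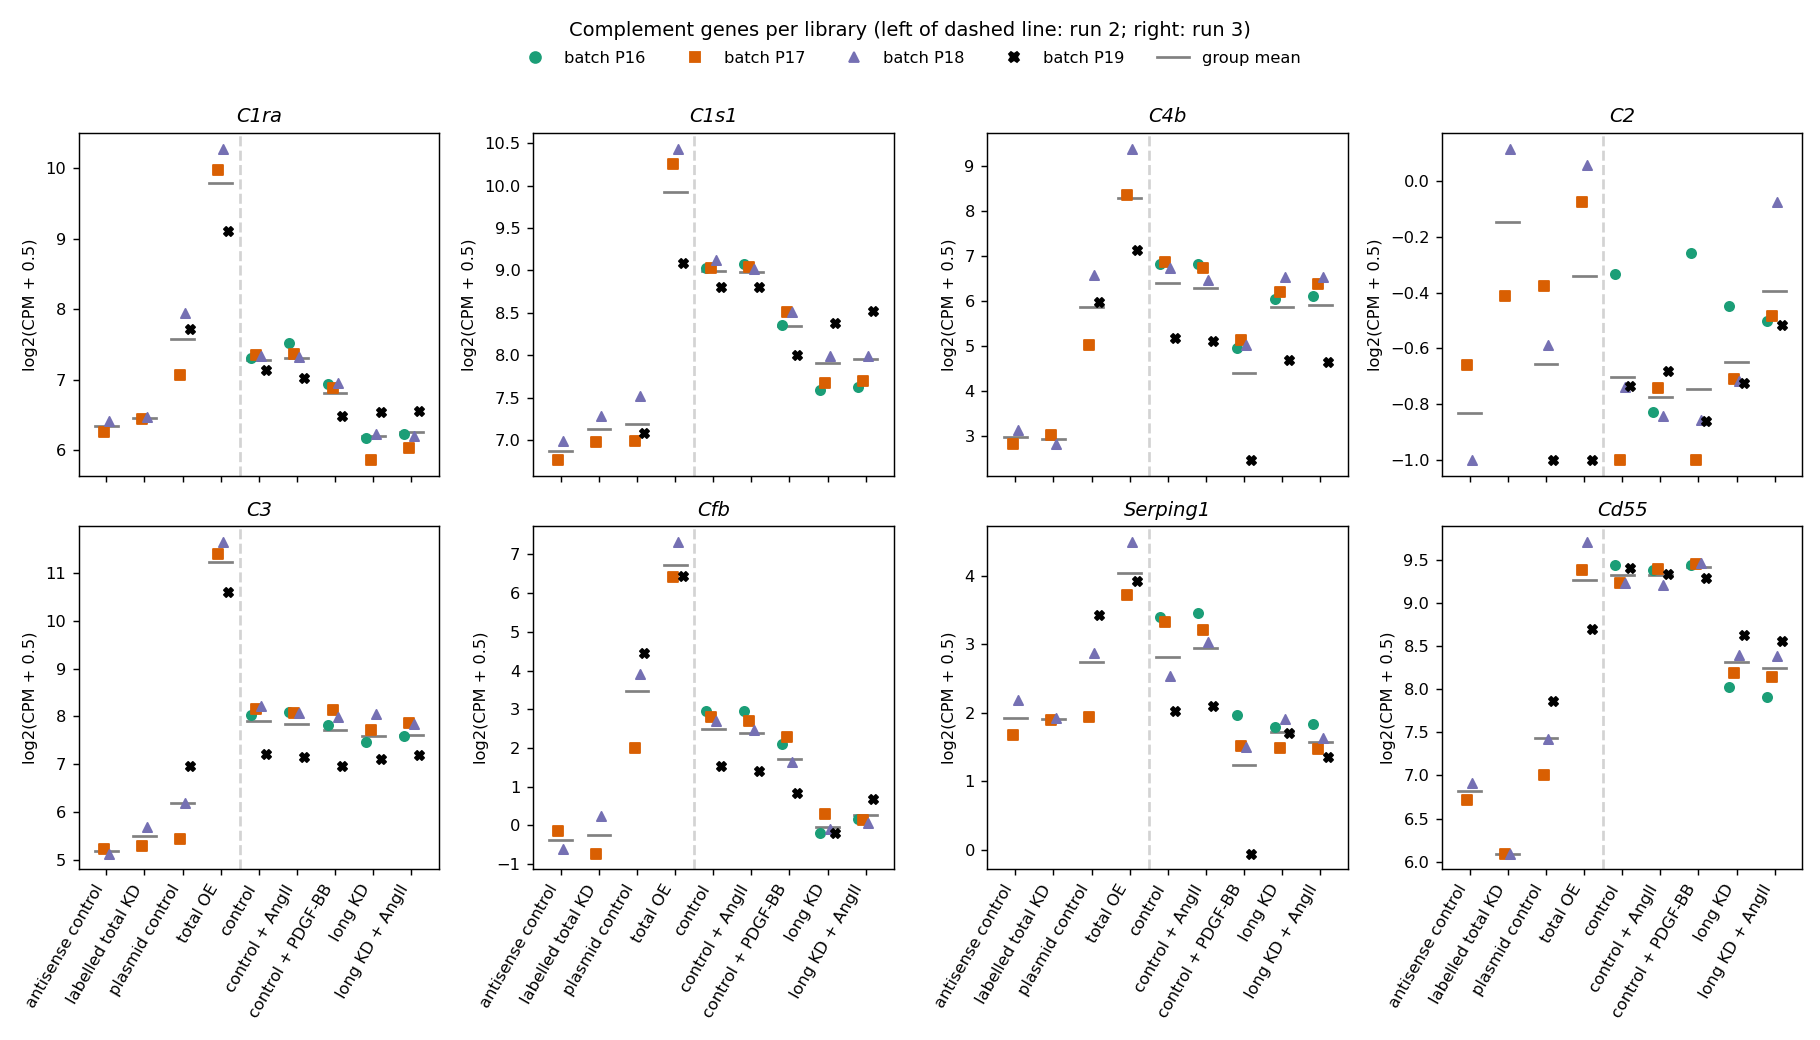
Level of each of the 8 complement genes in every library, as log2(CPM + 0.5), by group; colours and shapes mark the batch label and grey lines group means. The overexpression libraries stand above the plasmid controls in all panels but C2, and long CASC15 knockdown stands below its controls for C1ra, C1s1, Cfb, Serping1 and Cd55.

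Overexpression of total CASC15 was accompanied by higher RNA of 5 of 7 tested complement genes (C1ra, C1s1, C3, Cfb and Cd55), where 1.65% of all tested genes were called in either direction. The largest rise was that of C3. The median log2 fold change over the tested members was 2.58, against 0.000262 over all tested genes. In all 7 genes every overexpression library lay above every plasmid control, including C4b and Serping1, which were not called. With so few libraries a group, separation can arise by chance, and the share of all tested genes showing it was not computed. In bulk libraries, more RNA per cell and more cells of an expressing type cannot be told apart.

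C3 was at 42.8, 71.9 and 125 CPM in the plasmid controls of batches P17, P18 and P19. In the overexpression libraries of the same batches it was at 2722, 3222 and 1558 CPM. Even the lowest overexpression library, P19, was thus far above the highest control, also P19. The fold change was 31.3 (log2 4.97, SE 0.443, adjusted p = 0.00106, edgeR), and it was called under all 13 alternatives. C3 took 34.0% to 37.4% of the summed RPKM of the 8 genes in overexpression libraries and 6.5% to 11.6% in plasmid controls.

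C1s1, the protease that cleaves C4 and C2, was at 126, 182 and 135 CPM in the plasmid controls and at 1220, 1385 and 544 in the overexpression libraries (log2 change 2.83, SE 0.328, adjusted p = 0.00412, edgeR). C1ra, which activates C1s, was at 133, 246 and 211 CPM and at 1010, 1241 and 553 (2.25, SE 0.307, adjusted p = 0.00909, edgeR). For both genes the overexpression library of P19 was the lowest of its group and still above all controls.
C4b, the substrate of C1s, was at 32.0, 96.0 and 63.2 CPM and at 330, 673 and 140.3 CPM (2.58, SE 0.559, adjusted p = 0.0625, edgeR). Its groups did not overlap, but its spread was wide, and it was called in 4 of 13 alternatives: by DESeq2 (adjusted p = 0.000763), with no low-count filter, without overexpression library 3 (0.0168) and without batch P19 (0.0264).

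Cfb was at 3.51, 14.6 and 21.5 CPM in the plasmid controls and at 85.5, 159.6 and 86.1 CPM in the overexpression libraries (log2 change 3.07, SE 0.598, adjusted p = 0.0442, edgeR). Its call was lost in 5 of 13 alternatives. Those were the fit of only these 2 groups (adjusted p = 0.132), and leaving out plasmid control 2 (0.161) or overexpression library 1 (0.0841), 2 (0.163) or 3 (0.052). Among the regulators, Cd55 was at 128, 171 and 232 CPM and at 665, 836 and 417 CPM (1.85, SE 0.273, adjusted p = 0.0123, edgeR). Its call was lost without plasmid control 2 (adjusted p = 0.074) and in the fit of only these 2 groups (0.0723), where C1ra was lost as well (0.0577). Serping1 was at 3.33, 6.82 and 10.3 CPM and at 12.6, 22.0 and 14.7 CPM (1.27, SE 0.381, adjusted p = 0.154, edgeR). With batch as a replicate block (17.7% of all tested genes called), Serping1 was called (adjusted p = 0.0104), as it was by DESeq2 (0.0317), with no low-count filter (0.000125), without plasmid control 3 (0.0304) and without batch P19 (0.0382). Cfb, Cd55 and Serping1 all separated the groups, with the smallest gap for Serping1.

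Of 20 tested complement genes outside the 8, 1 was called higher and 0 lower with total CASC15 overexpression, beside 1.65% of all tested genes: C1qbp, which encodes a mitochondrial protein that also binds C1q (log2 change 0.46, SE 0.093, adjusted p = 0.0444, edgeR). With that block the counts, against the same 17.7% of all genes, were 5 higher and 3 lower. Of 18 genes named as signals that act on complement transcription, 15 were tested; 10 were called higher and 0 lower, beside the same 1.65%, and 12 and 0 with the block, beside 17.7%. Cebpd rose from a mean of 42.0 to 273 CPM (adjusted p = 0.000752, edgeR), Nfkbiz, an inhibitor-of-kB family member induced by inflammation, from 42.2 to 150.3 CPM (log2 change 1.83), and Osmr, the oncostatin M receptor, from 67.8 to 197.9 CPM (1.55). Macrophage markers summed to 18.1 to 23.5 CPM in the overexpression libraries and 11.4 to 12.8 in plasmid controls, with 4 and 3 of 8 detected. Cd14 made up most of the sum, mean Cd68 was lower (0.279 against 0.748), and Adgre1 and C1qa were at 0 in both groups. Sums of smooth muscle (247.6 to 490.4 and 194 to 536 CPM), fibroblast (1129 to 1333 and 958 to 1354) and mesothelial markers (117.8 to 384.6 and 190.3 to 458) overlapped. Mean Tagln (1.36 against 2.44) and Myh11 (0.212 against 0.534) were lower, and mean Acta2 was 254 against 244. The part of these markers in the result was not tested.

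**Figure D2:**
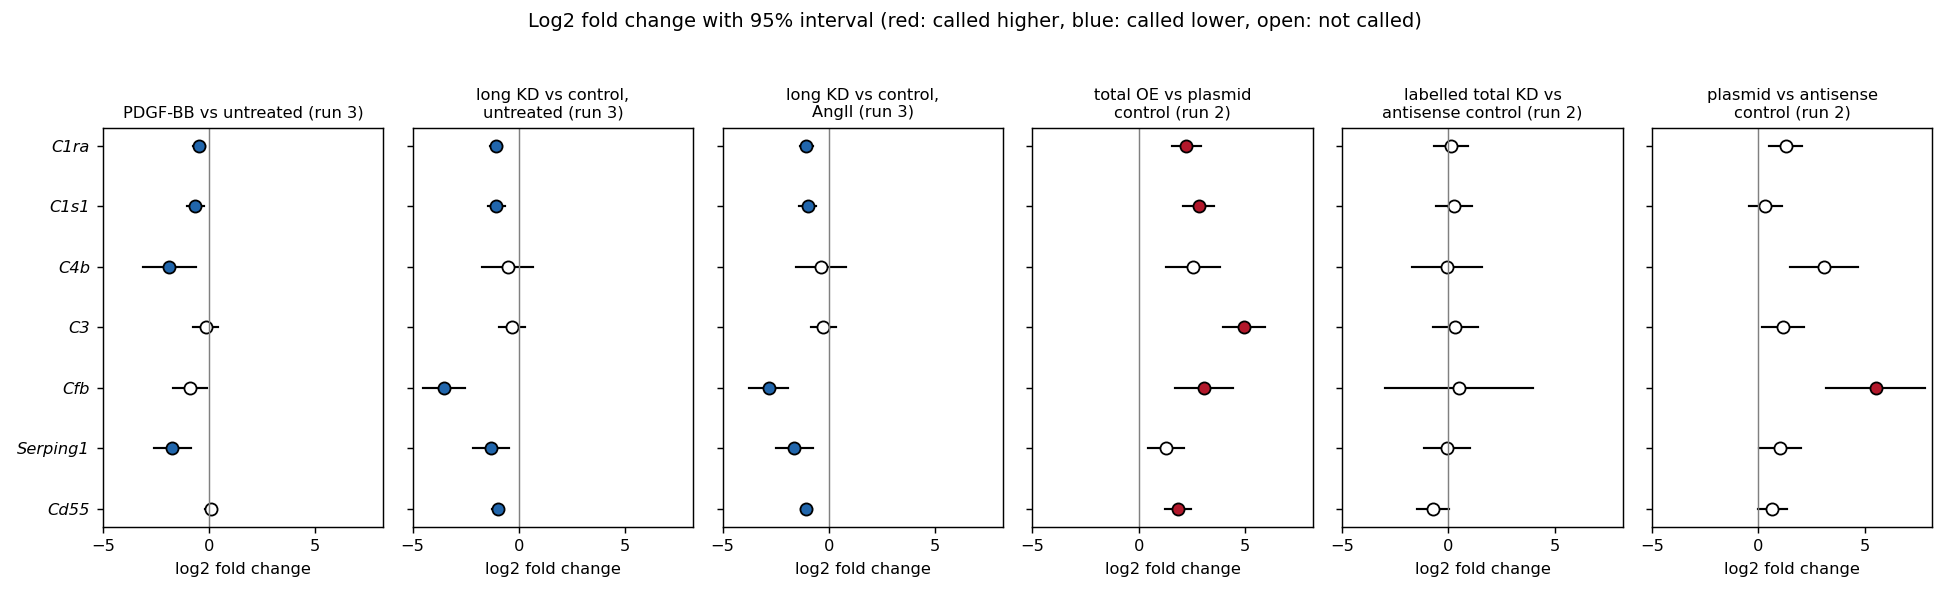
Log2 fold change of the 7 tested complement genes in 6 comparisons, with 95% intervals from the edgeR fit; filled points were called at an adjusted p under 0.05. All 7 points lie above 0 for overexpression and all 7 below 0 for both long CASC15 knockdown comparisons, where C4b and C3 have intervals that include 0.

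The plasmid control and the GapmeR control of run 2 differ in the nucleic acid transfected, and Cfb was called between them, though not in most alternatives. The background of that comparison was 1.18% of tested genes called, and 1 of the 7 genes was called higher in the plasmid control. Cfb was at 0.401 and 0.148 CPM in the GapmeR controls, below all 3 plasmid controls given above (log2 change 5.52, SE 1.02, adjusted p = 0.0392, edgeR). That call was lost in 7 of 12 alternatives, among them the replicate block (adjusted p = 0.135) and leaving out either GapmeR control (0.374 and 0.502) or plasmid control 2 (0.113) or 3 (0.0681). C4b was at 6.59 and 8.30 CPM in the GapmeR controls (3.10, SE 0.699, adjusted p = 0.113, edgeR), and was called in 3 alternatives: without plasmid control 1 (0.0485), by DESeq2 (0.000274) and with no low-count filter. C1ra was called by DESeq2 (0.00537) and with no filter, where C3, Serping1 and Cd55 were called as well. The groups of 5 of the 7 genes did not overlap, a count for which no share of all tested genes was computed. With so few libraries, such separation can arise by chance. Of 15 tested signal genes, 2 were called higher and 0 lower. One of them, Irf1, an interferon-responsive transcription factor, rose from a mean of 38.8 to 80.4 CPM (log2 change 1.05, adjusted p = 0.0137, edgeR). Sums of macrophage markers were 11.4 to 12.8 CPM for plasmid and 8.64 to 10.3 CPM for GapmeR controls, with 3 and 2 of 8 detected and Adgre1 and C1qa at 0 in both. The sums of the smooth muscle (194 to 536 and 175 to 195.4 CPM), fibroblast (958 to 1354 and 836 to 967) and mesothelial markers (190.3 to 458 and 256 to 284) overlapped between the groups. Acta2 did not overlap, at 126 to 441 against 111 to 118 CPM. Means of Upk3b (22.3 against 6.72), Msln (77.7 against 43.1) and Wt1 (7.49 against 3.92) were higher in the plasmid controls, with overlapping ranges. Krt19, the largest of the same mesothelial list, had a lower mean there (176.6 against 216.3 CPM). The part of these markers in the result was not tested.

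Libraries labelled total CASC15 knockdown showed 0 of 7 members called against the GapmeR control, with a background of 2.07%. By edgeR 0 members had an unadjusted p under 0.05, where 1975 of 15350 tested genes did, and DESeq2 also called 0 members. Cd55 had the largest shift that separated the groups: 67.7 and 67.8 CPM against 104.7 and 120.4 CPM (log2 change -0.73, SE 0.328, adjusted p = 0.393, edgeR). It was called in 3 alternatives: without a low-count filter (adjusted p = 0.00276), in the fit of only these groups (0.0124) and without batch P19 (0.0384). C4b was at 7.62 and 6.58 CPM and overlapped its control. C4a, a near-identical copy of C4b, rose from a mean of 0.793 to 8.47 CPM (log2 change 3.42, SE 0.600, adjusted p = 0.0239, edgeR). C4a held 44.1% and 62.4% of the summed C4a and C4b counts in these 2 libraries, and 0.106% to 12.5% in the other 28. Because the authors' counting divides reads that fit both genes, the split between C4a and C4b is uncertain. Macrophage markers summed to 27.7 to 32.3 CPM in these libraries and 8.64 to 10.3 in the GapmeR controls, with 4 and 2 of 8 detected; the mean of Cd68 was 15.8 against 0.43 CPM and that of Csf1r 2.89 against 0.141, while Ptprc, C1qa and Fcgr1 were at 0 in both groups. Mesothelial markers summed to 385 to 449.7 and 256 to 284 CPM, with 4 of 4 detected in both, mostly Krt19. Mean Krt19 was 369.1 against 216.3, while Wt1 (2.335 against 3.919), Msln (39.15 against 43.11) and Upk3b (6.635 against 6.723) were lower. Endothelial markers summed to 6.02 to 9.99 and 2.81 to 3.9 CPM, with 3 of 6 detected in both and Tie1 at 0; mean Vwf was 4.82 against 2.08 and Pecam1 2.64 against 0.939. The hepatocyte marker Apoa1 was at a mean of 0.833 CPM against 0, with Ttr, Serpina1a and Fgb at 0. Smooth muscle markers summed to 195.5 to 214 and 175 to 195.4 CPM, with mean Myh11 at 5.49 against 0.989 and Des at 2.14 against 0.307. Acta2, the largest of that list, was at a mean of 108.5 against 114.3. Fibroblast markers were lower, with sums of 732.6 to 778.3 and 836 to 967 CPM, mostly Dcn. Mean Pdgfra was 17.9 against 35.8, but Pi16, of the same list, was 28.9 against 19.6. The part of these markers in the rise of C4a was not tested.

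Knockdown of long CASC15 in untreated cells was accompanied by lower RNA of 5 of 7 tested members (C1ra, C1s1, Cfb, Serping1 and Cd55), with 25.0% of all tested genes called. Under angiotensin II the count was 5 of 7 again, for the same 5 genes, with 26.7% called. None of the 7 was called higher. C2, too low to be tested, was at 4, 4, 9 and 4 counts in knockdown with angiotensin II and at 1, 2, 1 and 2 in its control. The members' median log2 fold changes were -1.07 and -1.06, against 0.0155 and 0.0144 over all tested genes. The 2 comparisons use separate libraries of the same batches.

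Cfb was at 7.31, 6.44, 6.03 and 2.37 CPM in the untreated controls of batches P16 to P19, and at 0.374, 0.723, 0.435 and 0.371 CPM after knockdown. The lowest control was thus well above the highest knockdown library. The fit put the log2 fold change at -3.53 (SE 0.465; edgeR adjusted p = 1.45e-05), and under angiotensin II it was -2.82 (SE 0.442, adjusted p = 9.45e-05).

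Cd55 was at 695, 602, 602 and 679 CPM in untreated controls and at 260.5, 290.2, 337 and 397 CPM after knockdown (log2 change -1.01, SE 0.123, adjusted p = 6.07e-06, edgeR). Under angiotensin II the knockdown libraries were at 241, 282, 333 and 377 CPM, against 591 to 673 in controls (-1.06, SE 0.123). In both conditions the knockdown libraries of P19 were nearest to the controls, and no library crossed over. The other regulator, Serping1, was at 10.0, 9.53, 5.29 and 3.56 CPM in untreated controls and at 2.94, 2.28, 3.26 and 2.76 CPM after knockdown (-1.33, SE 0.404, adjusted p = 0.0205, edgeR). Its call was lost without control library 1 (adjusted p = 0.0713), control library 2 (0.0592) or knockdown library 2 (0.0629), and without a low-count filter (0.0681). Under angiotensin II it was called in every alternative tried (-1.62, SE 0.409, adjusted p = 0.00661, edgeR).

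C1ra was at 158, 163, 161 and 139.8 CPM in untreated controls and at 71.4, 57.3, 74.7 and 92.9 CPM after knockdown (log2 change -1.07, SE 0.141, adjusted p = 1.8e-05, edgeR). C1s1 was at 521, 524, 559 and 448 CPM and at 192, 203, 253 and 332 CPM (-1.07, SE 0.187, adjusted p = 0.000394, edgeR). The pair of proteases thus had like fold changes, and for both genes the P19 libraries of the 2 groups lay closest together. The within-batch log2 ratios of C1s1 ran from -1.44 to -0.43, all below 0.

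C3 was at 262, 285, 296 and 148 CPM in untreated controls and at 175, 211, 264 and 137 CPM after knockdown, so the groups overlapped (log2 change -0.33, SE 0.284, adjusted p = 0.428, edgeR). C4b was at 113, 117, 106 and 35.9 CPM and at 66.04, 72.9, 93.0 and 25.3 CPM (-0.53, SE 0.559, adjusted p = 0.525, edgeR). Both were lower after knockdown in 4 of 4 batches. With the replicate block, which called 40.6% of all tested genes, both were lower (adjusted p = 0.0125 for C3 and 0.0151 for C4b), and so they were without batch P19 (0.0312 and 0.00482). Under angiotensin II neither was called with the block (0.0586 and 0.0773). The 95% intervals without the block, -0.93 to 0.27 for C3 and -1.72 to 0.65 for C4b, include 0.

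**Figure D3:**
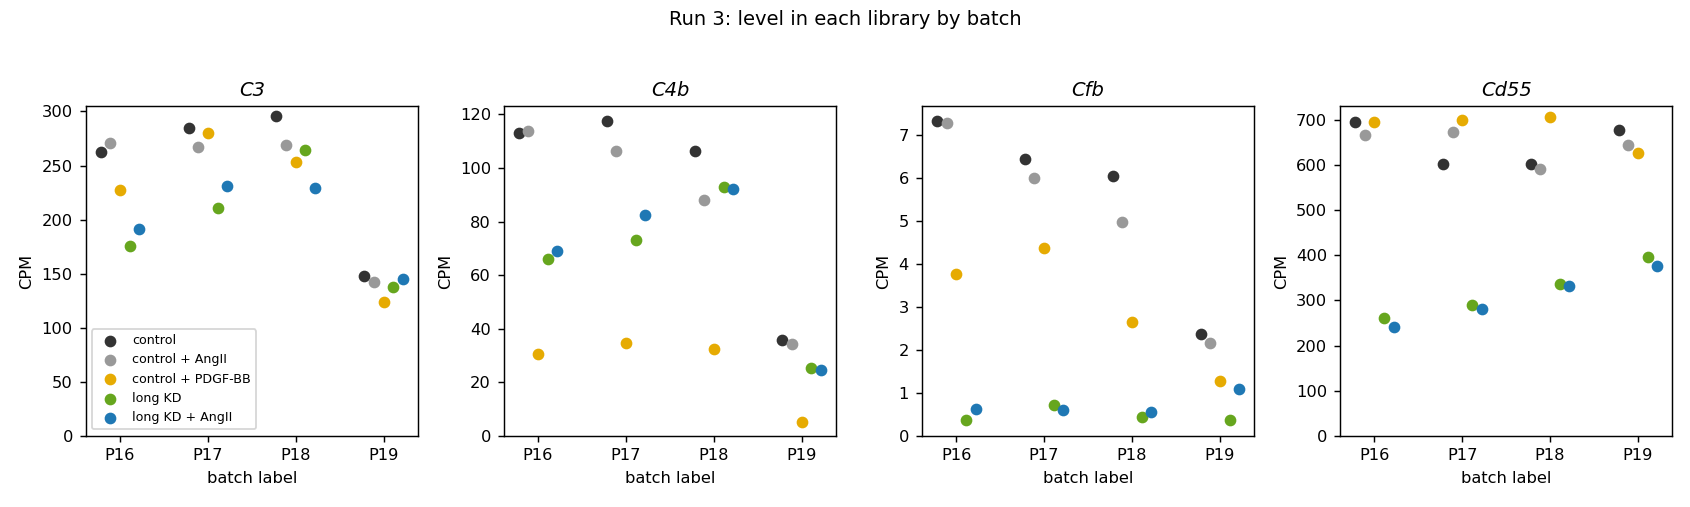
CPM of C3, C4b, Cfb and Cd55 in each library of run 3 by batch label, coloured by group. The P19 library is the lowest of its group in 5 of 5 groups for C3 and C4b, while for Cd55 the controls and knockdown libraries stay apart in every batch.

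Outside the 8 members, 6 of 19 tested complement genes were lower and 1 was higher with knockdown in untreated cells; under angiotensin II 10 were lower and 1 higher. The shares of all tested genes called were the 25.0% and 26.7% given above, in either direction. With the replicate block, which called 40.6% and 41.3% of all genes, 8 were lower and 1 higher in untreated cells, and 10 and 2 under angiotensin II. Lower in both were Masp1, a protease of the lectin pathway (log2 change -1.13 and -0.82), Clu, a soluble inhibitor of the terminal complex (-1.38 and -1.27), C5ar2, a C5a receptor (-1.11 and -1.22), Itgb2, the shared chain of the complement-receptor integrins (-1.08 and -1.16), and Cd93 (-2.47 and -2.38). Fcna, a lectin-pathway recognition molecule, was also lower in both but stood at 0.47 CPM or less in the untreated groups' means. Under angiotensin II alone the calls also held C3ar1, the C3a receptor (-1.21), Cd59a, which blocks the terminal complex (-0.79), Cr1l (-0.15) and C1qbp (-0.30); the difference between the conditions was not called for any gene. Cd46, a membrane cofactor for the inactivation of C3b, rose in both (2.01 and 1.43), from means of 0.767 and 1.06 to 3.07 and 2.88 CPM. The membrane regulators Cd55 and Cd46 were thus called in opposite directions with knockdown.

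Of the 14 tested signal genes, 7 were lower and 0 higher with knockdown in each condition: Il6, Il6st, Stat3, Cebpb, Cebpd, Irf1 and Nfkb2. The backgrounds were again 25.0% and 26.7%. With the replicate block 8 were lower and 2 higher in untreated cells, and 9 and 1 under angiotensin II. Cebpd, which had risen with overexpression, went from a mean of 67.2 to 41.0 CPM in untreated cells (log2 change -0.71, SE 0.180, adjusted p = 0.00702, edgeR). Il6 had a mean of 2.52 CPM in untreated controls and no count in the 4 untreated knockdown libraries. Mesothelial markers summed to 103 to 281 CPM with knockdown and 220 to 354 in untreated controls, with 4 of 4 detected in both; Krt19 made up most of the difference. Fibroblast markers summed to 1711 to 2204 CPM with knockdown and 1504 to 1733 in untreated controls, with 5 and 4 of 6 detected and Tcf21 at 0 in both, and members of that list lay in opposite directions: mean Pdgfra was 47.4 against 15.1 CPM and Lum 3.83 against 0.924, but Pi16 12.6 against 44.8. Smooth muscle markers summed to 231 to 329 and 242 to 276 CPM, and members of that list also lay in both directions. Mean Smtn was 70.8 against 46.7 CPM, Lmod1 1.03 against 0.755 and Myh11 0.94 against 0.0639. Mean Myocd was 0.995 against 2.5, Des 0.459 against 1.29 and Acta2 201.7 against 212.1. The part of these markers in the results of the members was not tested. Macrophage markers summed to 12.1 to 14.8 and 10.5 to 14.8 CPM, with Ptprc, Adgre1, C1qa and Fcgr1 at 0 in both groups.

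**Figure D4:**
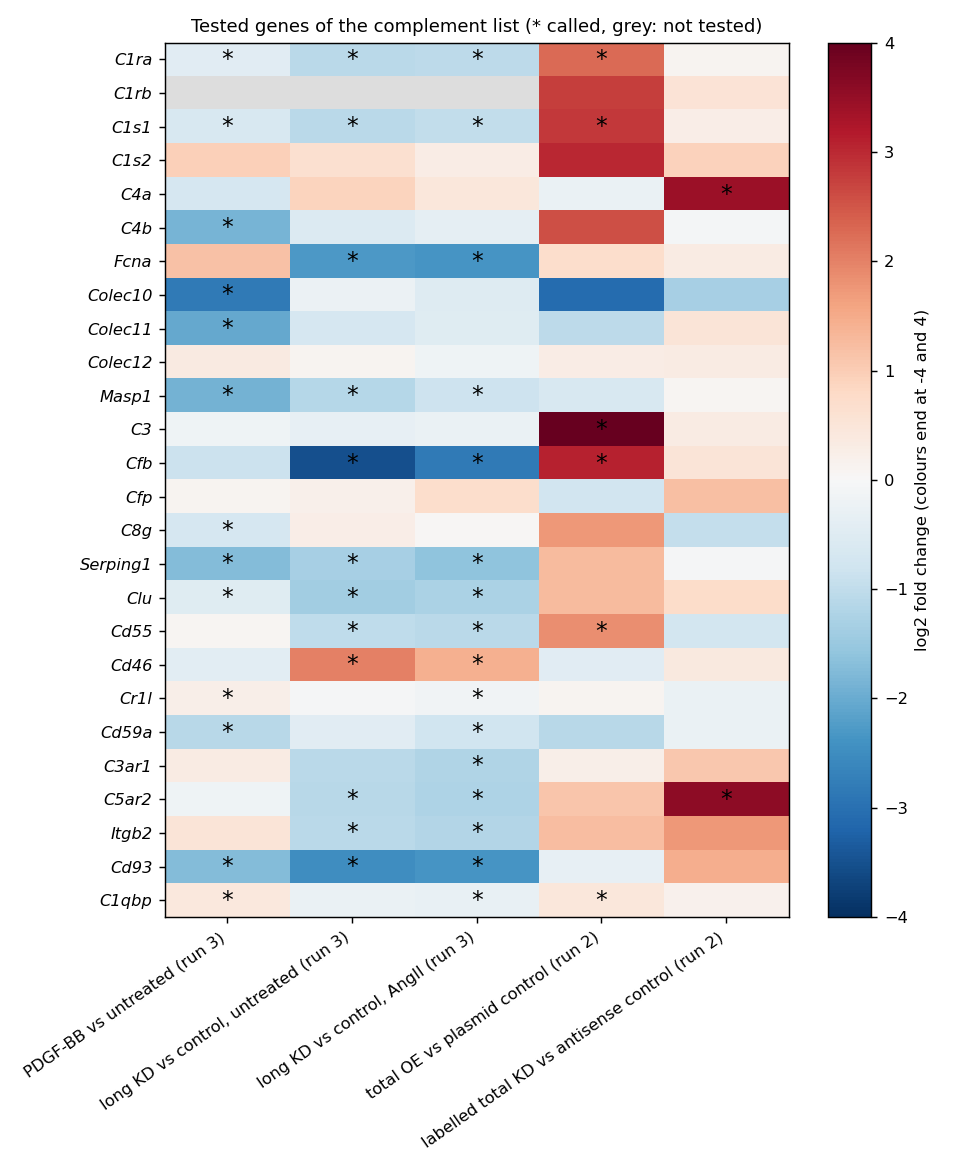
Log2 fold changes of tested genes of the complement list in 5 comparisons (colour scale ends at -4 and 4; asterisks mark calls, grey cells genes not tested). Asterisks are mostly blue in the long CASC15 knockdown and PDGF-BB columns, and Cd46 is red in both knockdown columns.

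With PDGF-BB, a growth factor for smooth muscle cells, the RNA of 4 of 7 members was lower in control cells (C1ra, C1s1, C4b and Serping1), where 43.6% of all tested genes were called, so that calls were common. The median log2 fold change was -0.64 over the members and -0.0168 over all tested genes. C4b was at 30.7, 34.5, 32.3 and 4.99 CPM with PDGF-BB in batches P16 to P19, against the untreated values given above (-1.86, SE 0.585, adjusted p = 0.0171, edgeR). Every PDGF-BB library lay below every control, the P19 library far below the other 3. Serping1 was at 3.42, 2.36, 2.32 and 0.458 CPM (-1.73, SE 0.414, adjusted p = 0.0023, edgeR), again with no overlap with the untreated controls.
C1s1 was at 328, 364, 365 and 256 CPM (-0.64, SE 0.186, adjusted p = 0.00927, edgeR), and C1ra at 122, 117, 123 and 89.1 CPM (-0.46, SE 0.139, adjusted p = 0.0115, edgeR). All 4 libraries of both genes were below all untreated controls. The comparison shares those controls with long CASC15 knockdown, and the difference between the 2 effects was not tested.

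Cfb was at 3.76, 4.37, 2.63 and 1.27 CPM with PDGF-BB and overlapped its controls (log2 change -0.88, SE 0.383, adjusted p = 0.0712, edgeR). It was called with the replicate block (adjusted p = 0.00734, with 54.5% of all genes called), without batch P19 (0.00103), without untreated control 4 (0.0159) and without PDGF-BB library 2 (0.0417). Cd55 was at 695, 699.9, 707 and 626 CPM, which overlapped its controls, and the interval of its log2 fold change was -0.17 to 0.33. The interval for C3 was -0.76 to 0.44. The bounds of Cd55 do not reach the log2 fold change of -1.01 seen with long CASC15 knockdown.

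Among the 19 tested complement genes outside the 8, 8 were lower and 2 higher with PDGF-BB, near the 43.6% called among all tested genes. With the replicate block, which called 54.5% of all genes, 8 were lower and 4 higher. Masp1 fell from a mean of 20.3 to 5.44 CPM (log2 change -1.89, SE 0.280, adjusted p = 2.44e-05, edgeR). The lectin-pathway genes Colec10 (-2.82) and Colec11 (-2.05) also fell, as did Cd93 (-1.72), Cd59a (-1.13), C8g (-0.66) and Clu (-0.47). Cr1l, a mouse regulator of C3 cleavage, rose by 0.25 and C1qbp by 0.43. Fibroblast markers summed to 607 to 836 CPM with PDGF-BB and 1504 to 1733 in untreated controls, with 4 of 6 detected in both, mostly Dcn, and Tcf21 at 0. Pi16, of the same list, was at a mean of 66.4 against 44.8 CPM. Smooth muscle markers summed to 196 to 219.5 and 242 to 276 CPM, with mean Acta2 at 110.5 against 212 and Smtn at 95.5 against 46.7. Mesothelial markers summed to 322 to 440.0 and 220 to 354 CPM, with mean Krt19 at 289 against 188. Of the same list, mean Msln was 40.3 against 37.1 and Wt1 6.5 against 5.72, but Upk3b was lower, at 21.1 against 36.8 CPM. Endothelial markers were low, with sums of 0.356 to 1.05 and 1.25 to 2.65 CPM and 1 and 4 of 6 detected. The part of all these markers in the results with PDGF-BB was not tested.

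Angiotensin II, a vasoconstrictor peptide, gave 0 of 7 calls in control cells and 0 of 7 in long CASC15 knockdown, and the interaction of both gave 0 of 7; the share of all genes called was 0 in each, by edgeR. No member had an unadjusted p under 0.05 in any of these, and DESeq2 called 0 members. Over all 15103 tested genes, 156, 174 and 166 had such a p by edgeR, fewer than chance alone gives at that threshold. The count of 0 members thus says little about them. In control cells C3 was at 271, 267, 269 and 142 CPM with angiotensin II and Cd55 at 667, 673, 591 and 645 CPM, close to the untreated libraries of the same batches. The members' log2 fold changes ran from -0.12 to 0.12 in control cells, from -0.17 to 0.59 in long CASC15 knockdown and from -0.29 to 0.71 for the interaction, with Cfb highest in the last 2. In control cells the interval was -0.25 to 0.25 for Cd55 and -1.30 to 1.06 for C4b. With the replicate block the change of C4b was -0.12 (SE 0.156), and its within-batch log2 ratios ran from -0.27 to 0.01. For the interaction the interval of Cd55 was -0.42 to 0.30 and that of Cfb -0.65 to 2.06.

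In the order of group means, total CASC15 overexpression was highest in run 2 for all 7 tested members, with no overlap with the plasmid control, the next group. As said above, the share of all tested genes with such separation was not computed. In run 3, untreated and angiotensin II controls overlapped for every tested member, as did untreated and angiotensin II knockdown. The lowest group of run 3 was a long CASC15 knockdown group for C1ra, C1s1, C3, Cfb and Cd55, and PDGF-BB for C4b and Serping1. Control levels differed between runs, which were scaled separately: Cd55 was at 104.7 and 120.4 CPM in the GapmeR controls of run 2 and at 602 to 695 CPM in the untreated controls of run 3, and the run and other differences of handling cannot be told apart.

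Among pairs of members, C1ra and C1s1 had the highest Spearman's rho in run 3 and C1ra and C3 the highest in run 2 (0.964). The rho of C1ra and C1s1 was 0.915 over the 10 libraries of run 2 and 0.955 over the 20 of run 3. C4b and Cd55 had a rho of 0.952 in run 2 and -0.0692 in run 3. Among 9958 candidate genes, those most like a member in both runs were Bst2 for C1ra (0.976 and 0.934), C1rl for C1s1 (0.952 and 0.947), Gbp6 for C4b (0.903 and 0.901), Irf7 for C3 (0.927 and 0.853), Gsdmd for Cfb (0.927 and 0.917), Xaf1 for Serping1 (0.964 and 0.934) and Tgfbr2 for Cd55 (0.952 and 0.934). These values describe libraries that share groups, batches and depth.

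Apart from C4a, described above, near-identical copies took few of the counts. C1rb held at most 0.423% of the counts of C1ra and C1rb together, C1s2 at most 0.357% with C1s1, and Cd55b at most 0.148% with Cd55; C1rb was tested in run 2 and C1s2 in both, with no call without the replicate block. With overexpression, C1rb had 23, 19 and 11 counts against 5, 0 and 3 in plasmid controls, and C1s2 56, 32 and 16 against 6, 1 and 6. With the block both were called higher there: C1rb by 2.72 on the log2 scale (SE 0.761, adjusted p = 0.0305, edgeR) and C1s2 by 2.95 (SE 0.589, adjusted p = 0.00619, edgeR), where 17.7% of all genes were called. Antisense genes overlap C1s1 (Gm16567, at most 31 counts a library) and Cd55 (Gm16083, at most 60.01), and Zbtb12 overlaps C2 on the opposite strand with up to 555 counts. The counting's use of strand is not given in the sources used here.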

How the data were processed

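The authors deposited 1 table of expected counts per gene for 30 libraries, not scaled to depth, made from total RNA sequenced as paired reads of 75 bp per the labels. The submitters' processing notes name STAR 2.7.11b, RSEM 1.3.1 and the builds GRCm39 and mm10, without saying which was used where. RSEM divides reads among genes they fit, so 20 of 30 values of C1ra, 29 of C1s1, 29 of C4b and 13 of Cd55 were not whole (tolerance 0.005).

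Symbols came from GENCODE M21 (51486 of 78334 identifiers matched, holding 98.7% of counts), as did union exon lengths. Expected counts were rounded, and each run was fitted alone over all its groups (R 4.3.3, edgeR 4.0.16, limma 3.58.1): filterByExpr (minimum count 10, minimum total 15; 15350 genes kept in run 2 and 15103 in run 3), TMM, robust quasi-likelihood fit and two-sided tests, with Benjamini-Hochberg adjustment over all tested genes and a call at an adjusted p under 0.05. CPM are TMM-scaled. Intervals of fold changes are 95%. The script was tested on simulated counts.

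The 8 members, the lists of 56 complement and 18 signal genes and the cell type markers were chosen with earlier results of these data known. The members are named throughout; other complement genes are named where called with a mean of at least 1 CPM, and copies of members always. Genes most like a member are those with the highest lower rho of the 2 runs, at a mean of at least 5 CPM. Fcna and the signal genes shown by value were named after their values were seen.

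Groups follow the code within each library's name, since some titles number the target upward. Batch labels tie same-numbered libraries together: after removing group means, same-numbered libraries correlated across genes at a mean of 0.246 to 0.591 and others at -0.356 to -0.0735, by comparison. Removing group means itself pushes the second range below 0 when the first is above it, so only the first is informative. The main fit has no replicate block, since the labels state no design. Alternatives were RLE scaling, DESeq2 1.42.0, no filter, a filter at a mean CPM of 1, fits of only the groups compared, the block, leaving out each library and, chosen after seeing the data, leaving out batch P19. Planned protein stretches are not shown. The symbol 2610307P16Rik was read as mouse CASC15; no table used here pairs them. Results for some genes of the lists are not reported here.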

Additional observations from a re-analysis of the deposited data

Results flagged for a closer look

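In 40 groups of 4 libraries (8 genes in 5 groups of run 3), a library lay far from the other 3 by Dixon's 95% criterion in 8; chance gives this in about 1 in 20 groups. In 4 of the 8 it was a P19 library (replicate 4) that lay lowest. C4b was at 35.9 CPM in untreated control 4, where the others were at 106 to 117, and at 4.99 CPM in PDGF-BB library 4, where the others were at 30.7 to 34.5. C3 was at 142 CPM in angiotensin II control 4, against 267 to 271. Cd55 was at 626 CPM in PDGF-BB library 4, against 695 to 707. Cfb in long CASC15 knockdown with angiotensin II was highest in library 4, at 1.1 CPM against 0.549 to 0.616.

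The other 3 concern C2, at counts near the floor. It was highest at 0.337 CPM in PDGF-BB library 1, at 0.234 CPM in untreated long CASC15 knockdown library 1 and at 0.449 CPM in long CASC15 knockdown library 3 with angiotensin II.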

How the results depend on the processing

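Over 63 member fold changes, 937 alternative values were computed: 835 kept direction and side of the threshold, 19 lost a call, 28 gained one, 55 changed sign without a call, and 0 called values reversed. C2 was tested only in some alternatives and never called there. The 5 calls in long CASC15 knockdown with angiotensin II held in all 15 alternatives.

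With total CASC15 overexpression, 5 members were called, 2 in the fit of only the groups compared, 6 with the replicate block, 7 by DESeq2, 7 with no filter, 7 without batch P19, and 3 to 6 when leaving out 1 library. For all genes (253 called) the counts were 1363 with no filter, 2721 with the replicate block, 807 by DESeq2, 66 with only the groups compared, 844 without batch P19, and 86 to 867 leaving out 1 library. In the libraries labelled total CASC15 knockdown 0 members were called, and 1 with no filter, 1 with only the groups compared and 1 without batch P19. For all genes (317) the counts were 1325 with no filter, 190 at a mean CPM of 1, 2209 with the block, 719 by DESeq2, 1079 with only the groups compared, 1041 without P19 and 4 to 188 leaving out 1 library. Between the plasmid and GapmeR controls 1 member was called, 6 with no filter, 3 by DESeq2, 0 with the block, 0 with only the groups compared, 0 without P19 and 0 to 2 leaving out 1 library; for all genes (181) the counts were 1106 with no filter, 459 with the block, 347 by DESeq2, 101 with only the groups compared and 67 to 277 leaving out 1 library. For long CASC15 knockdown in untreated cells all genes called went from 3783 to 6126 with the block and 6062 without P19, and under angiotensin II from 4033 to 6238 with the block. Members called in untreated cells went from 5 to 7 with the block. For angiotensin II in control cells and for the interaction, 0 genes became 1 by DESeq2 and 1 with only the groups compared. With PDGF-BB the members called went from 4 to 5 with the block. With no filter, the SE of C4b with overexpression was 0.152 (adjusted p = 1.54e-60, edgeR), against 0.559 in the main fit. Calls gained in run 2 without the filter thus rest on a much smaller estimate of spread. The cause of these changes was not tested.

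Run 2 had 2 or 3 libraries a group and a biological coefficient of variation of 0.232, against 4 libraries and 0.148 in run 3. Depth limits C2 in all groups, and Cfb where it was under 1 CPM. Leaving out a library of a pair assumes that the lone library varies like the other groups.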

Other observations

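Summed over the 8 genes, RPKM was 1380 ± 525 (SD, n = 3) with total CASC15 overexpression and 184 ± 48.6 (n = 3) in plasmid controls of run 2. In run 3 the sum was 418 ± 34.5 in untreated controls, 333 ± 45.4 with PDGF-BB and 220.3 ± 32.7 in untreated long CASC15 knockdown (n = 4 each). C3 held 11.4% ± 2.47 of that sum in untreated controls and 17.6% ± 4.83 in untreated long CASC15 knockdown, with ranges of 7.82% to 13.2% and 10.6% to 21.0% that overlap. These sums were chosen after the values were seen and carry no test.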
